A study of Mus musculus with 6 samples.

Results

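Kruppel-like factors are transcription factors that bind CACCC and GC-rich sequences through zinc fingers near their C terminus. Expression of 8 of them, Klf2, Klf3, Klf4, Klf6, Klf7, Klf9, Klf10 and Klf13, was compared between 3 subsets of endothelial cells (ECs) of the mouse thymus. The members were taken by gene symbol, 8 rows among the 24457 rows on chromosomes in each table, and all 8 were among the 11717 genes that reached 1 FPKM in 2 or more libraries and were tested. FPKM is a level per transcript length and per library depth, so it can be compared between genes. The study sorted ECs, as CD31+ cells negative for CD45 and EpCAM, from the thymi of female wildtype C57BL/6 mice that the labels give as 4 to 6 weeks old. Type I ECs were Ly6C+Selp-, type II ECs Ly6C+Selp+ and type III ECs Ly6C-Selp+, where Selp is P-selectin, with 2 libraries each and a stated purity of at least 90%. The labels name no allele or agent that differed between the subsets, and the surface markers of the sort are the difference between them. Nothing in the labels says that the libraries came from separate animals or pools, so the p-values measure the spread between these samples, which may be technical.

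In ECs, Klf2 and Klf4 are known as the factors that laminar flow switches on, through the kinases MEKK2 or MEKK3, MEK5 and ERK5 and through MEF2 proteins. They are known to raise thrombomodulin, endothelial nitric oxide synthase and other genes of quiescent vessels, and to lower adhesion molecules and other inflammatory genes. Klf6 and Klf7 are mostly activators, Klf3 is a repressor that recruits the CtBP proteins, and Klf9, Klf10 and Klf13 recruit the Sin3a corepressor. Klf10 was first known as an early gene of TGF-beta signalling.

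The tables fit the sort. Selp was at 7.87 and 5.20 FPKM in type I ECs, at 313 and 416 in type II ECs and at 526 and 657 in type III ECs, and Ly6c1 was at 1010 and 692, then 522 and 351, then 99.6 and 59.7. These are genes of the gate itself, so the values only check the labels. Pecam1, the gene of CD31, was between 496 and 867 FPKM, and 8 endothelial markers summed to between 1894 and 2433. Markers of other cell types were present. The sums of 7 thymocyte and 4 myeloid markers were highest in type III replicate 1, at 134 and 357 FPKM, against 21.2 to 80.0 and 29.0 to 215 in the other libraries. Ptprc, the gene of CD45, was at 28.9 in that library and at 2.88 to 10.6 in the others. These 3 values were higher in replicate 1 than in replicate 2 of every subset. The sum of 6 mural markers was 462 and 176 in type I ECs, 407 and 268 in type II ECs and 92.8 and 137 in type III ECs. Fragments per library, estimated from the deposited intervals, ranged from 1452476 to 2423171.

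The 8 genes are spread over the genome, each on a chromosome of its own. In mm9 coordinates as the tables give them, Klf2 is at chr8:74842961-74845553 on the plus strand, Klf4 at chr4:55540009-55545347 on the minus strand, Klf3 at chr5:65194762-65221368 on the plus strand and Klf13 at chr7:71031237-71083801 on the minus strand. Klf6 lies at chr13:5860735-5869639 (plus), Klf7 at chr1:64082247-64167963 (minus), Klf9 at chr19:23215716-23241401 (plus) and Klf10 at chr15:38221219-38230466 (minus). In GENCODE release M1, Gm13748 overlaps Klf7 on the opposite strand and Mir1192 lies within Klf9 on the same strand. The sources used here do not say whether counting used the strand, so reads of Klf7 and Gm13748 cannot be told apart. The other 6 have no overlapping gene there.

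RefSeq start sites were matched for 7 of the 8 members, all but Klf10, so the matches below do not cover it. The 250 bases before the start are shown for Klf2 and Klf4, the flow-induced pair, and for Klf3 and Klf13, which had lower levels in both libraries of type III than in both of type I ECs. Capitals mark matches on either strand to the MEF2 consensus, to CACCC and to GGGCGG. The coordinates are of GRCm38.p6, a later build than that of the tables.
Klf2, chr8:72318812-72319061, plus strand: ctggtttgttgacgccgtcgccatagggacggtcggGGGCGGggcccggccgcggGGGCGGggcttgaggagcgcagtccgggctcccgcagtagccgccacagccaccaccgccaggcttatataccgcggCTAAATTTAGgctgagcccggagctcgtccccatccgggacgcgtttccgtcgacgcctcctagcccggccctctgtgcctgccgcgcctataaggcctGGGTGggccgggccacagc
Klf4, chr4:55532476-55532725, minus strand: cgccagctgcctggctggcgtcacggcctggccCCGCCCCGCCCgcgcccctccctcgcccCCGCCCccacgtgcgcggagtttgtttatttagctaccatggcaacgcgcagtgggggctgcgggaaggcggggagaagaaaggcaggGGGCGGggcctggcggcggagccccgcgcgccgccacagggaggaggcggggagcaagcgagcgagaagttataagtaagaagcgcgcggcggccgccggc
Klf3, chr5:64803271-64803520, plus strand: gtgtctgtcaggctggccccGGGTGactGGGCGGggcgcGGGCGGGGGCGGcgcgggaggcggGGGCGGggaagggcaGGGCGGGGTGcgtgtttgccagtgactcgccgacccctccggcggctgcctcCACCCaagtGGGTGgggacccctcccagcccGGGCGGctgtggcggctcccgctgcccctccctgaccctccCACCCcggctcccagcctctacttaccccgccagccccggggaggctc
Klf13, chr7:63938916-63939165, minus strand: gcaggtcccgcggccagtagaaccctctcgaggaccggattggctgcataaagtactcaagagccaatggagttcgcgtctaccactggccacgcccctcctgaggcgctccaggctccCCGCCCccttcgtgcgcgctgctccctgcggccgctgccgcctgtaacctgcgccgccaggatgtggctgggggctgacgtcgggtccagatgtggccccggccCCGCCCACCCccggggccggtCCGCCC
Klf2 held 1 match to the MEF2 consensus, CTAAATTTAG, whose first base lies 118 bases before the start. None of the other 6 members matched had one in this window, and 2.92% of 32851 RefSeq promoters of the same length did. CACCC was found 5 times in Klf3, 3 times in Klf7, once in Klf2, Klf9 and Klf13 and not in Klf4 or Klf6, and 52.0% of promoters held it. GGGCGG was found 6 times in Klf3, 4 times in Klf4, 3 times in Klf13, 2 times in Klf2, once in Klf6 and Klf7 and not in Klf9, against 32.7% of promoters with it. In Klf3 and Klf13 a GGGCGG match and a CACCC match share a base. TGACGTCA was in none of the 7, against 1.55% of promoters. TGANTCA was in Klf9 only, against 6.75%. These are matches of letters and show no binding.

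Klf2 and Klf4 had the highest levels of the 8 genes in every subset. Klf2 was at 190 and 184 FPKM in type I ECs, at 119 and 145 in type II ECs and at 123 and 198 in type III ECs. Both type II libraries were below both type I libraries, whereas the type III libraries lay on either side of them. The 95% intervals of the latter pair, 111 to 134 and 187 to 210, did not overlap, so the replicates differed by more than the deposited tables give as error. The mean was 187 ± 3.99 (SD, n = 2) in type I ECs, 132 ± 18.6 (SD, n = 2) in type II ECs and 161 ± 53.7 (SD, n = 2) in type III ECs. These values are FPKM as deposited. The median-of-ratios size factors, a measure of library scale, were 1.19 and 0.85 in type I and 1.17 and 0.99 in type III ECs. The close type I values and their gap to type II ECs thus depend on the scaling.

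The log2 fold change of Klf2 was -0.50 from type I to type II ECs (SE 0.28, 95% interval -1.13 to 0.12, limma adjusted p = 0.78). Between type I and type III ECs it was -0.26 (SE 0.28, 95% interval -0.88 to 0.36, limma adjusted p = 0.79). Fold changes are on the scale of log2(FPKM + 1), and a gene was called at a limma adjusted p of at most 0.05 over all genes tested, which neither value reached. The second value rested on type III replicate 1, the library with the highest thymocyte and myeloid marker sums, and was 0.086 without it. The part of those cells in the low Klf2 value was not tested. Fewer cells with a transcript and less transcript per cell cannot be told apart in these bulk samples.

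Klf4 varied least. It was at 152 and 139 FPKM in type I ECs, at 145 and 150 in type II ECs and at 130 and 154 in type III ECs. The 3 subsets overlapped, and the highest library was 1.18 times the lowest, against 3.99 times for Klf10. Its log2 fold change between type I and type III ECs was -0.037 (SE 0.22, limma adjusted p = 0.97). The 95% interval, -0.54 to 0.46, leaves room for a change of up to 1.45-fold down or 1.38-fold up. With libraries scaled by median of ratios, the SE of this change was 0.22 for Klf4, 0.16 for Klf6 and 0.17 for Klf9. That of Klf4 was then no longer the smallest, so its rank depended on the scaling.

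**Figure D1:**
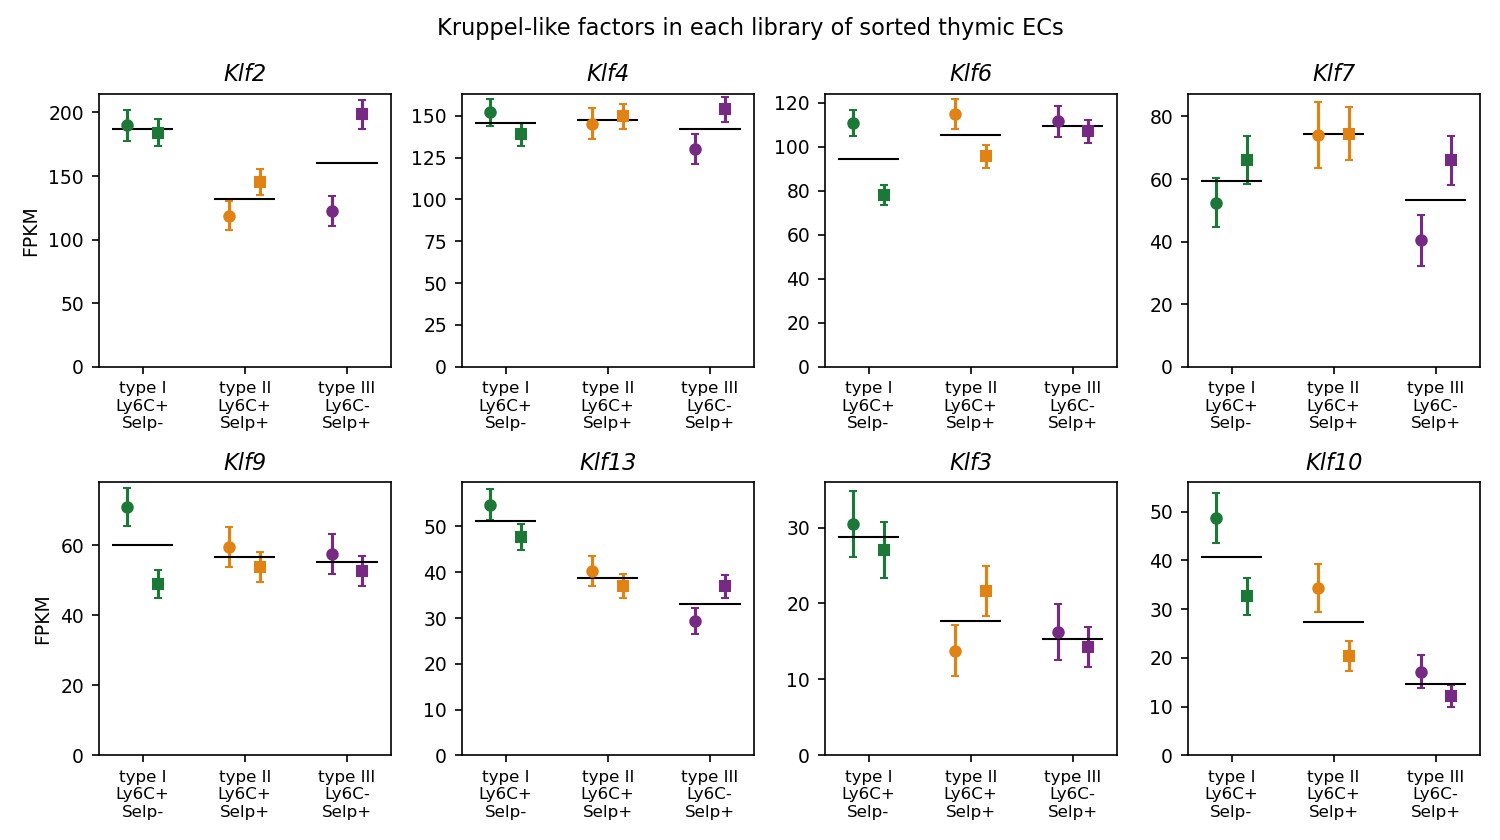
FPKM (vertical axis, from 0) of the 8 Klf genes in each library, with the subset on the horizontal axis. Circles are replicate 1 and squares replicate 2, bars are the deposited 95% intervals and the line is the mean of both libraries. Klf4 stays between 130 and 154 in all 6 libraries, Klf2 of type III ECs splits into 123 and 198, and Klf10 is lowest in both type III libraries.

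The activators Klf6 and Klf7 had lower levels than Klf2 and Klf4. Klf6, a zinc-finger activator of wound and injury responses, was at 111 and 78.1 FPKM in type I ECs, at 115 and 95.7 in type II ECs and at 112 and 107 in type III ECs. Replicate 1 was higher than replicate 2 in all 3 subsets, and the subsets overlapped. The median-of-ratios size factor had the same order, at 1.19 and 0.85, then 1.03 and 0.91, then 1.17 and 0.99. This order of the replicates is thus not particular to Klf6. The log2 fold change from type I to type III ECs was 0.23 (SE 0.25, 95% interval -0.34 to 0.80, limma adjusted p = 0.80), and it was -0.021 without type I replicate 2.

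Klf7 was at 52.4 and 66.1 FPKM in type I ECs, at 74.1 and 74.5 in type II ECs and at 40.4 and 66.0 in type III ECs. Type II ECs were above every library of the other 2 subsets, and Klf7 was alone among the 8 in having that order. From type I to type II ECs the log2 fold change was 0.33 (SE 0.28, limma adjusted p = 0.93), and from type II to type III ECs it was -0.52 (SE 0.28, limma adjusted p = 0.61). Neither passed the threshold, and the lowest value again belonged to type III replicate 1.

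The members with lower levels in both type III than in both type I libraries were Klf10, Klf3 and Klf13, none of which was called. Klf10, the early gene of TGF-beta signalling, was at 48.7 and 32.6 FPKM in type I ECs, at 34.4 and 20.3 in type II ECs and at 17.2 and 12.2 in type III ECs. Both type III libraries were below all 4 others, and the type I and type II libraries overlapped. The mean FPKM was 40.7 ± 11.4 (SD, n = 2) in type I, 27.4 ± 9.94 (SD, n = 2) in type II and 14.7 ± 3.48 (SD, n = 2) in type III ECs. These values rested on 307 to 360, 180 to 198 and 101 to 122 estimated fragments.

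The log2 fold change of Klf10 from type I to type III ECs was -1.40 (SE 0.34, 95% interval -2.16 to -0.63), which is 2.64-fold lower, with values of -1.45 within replicate 1 and -1.34 within replicate 2. Its limma adjusted p was 0.057, just short of the threshold of 0.05. Over 10 other settings of the fit, with no single library left out, the limma adjusted p ran from 0.0028 to 0.43 and passed in 5. Among these were all 3 rescalings of the libraries (limma adjusted p = 0.010 to 0.012) and the replicate number as a block (limma adjusted p = 0.0028). It did not pass with other pseudocounts, no trend, no filter or only the 2 subsets fitted (limma adjusted p = 0.054 to 0.43). The log2 fold change stayed between -1.59 and -1.20 there, and between -1.68 and -1.12 with a library left out. From type II to type III ECs it was -0.83 (SE 0.34, limma adjusted p = 0.46), and from type I to type II ECs -0.57 (SE 0.34, limma adjusted p = 0.81). The sum of mural markers was also lower in type III ECs, where Pdgfrb, a pericyte receptor, was called lower (log2 fold change -1.85, SE 0.33, limma adjusted p = 0.013). Rgs5, at 346 and 114 FPKM in type I ECs, was the largest part of that sum. Of the 6 markers 4 were lower without overlap in type III than in type I ECs. Acta2 and Myh11 had higher levels (log2 fold change 1.16 and 0.73, limma adjusted p = 0.18 and 0.54), Acta2 without overlap. The part of mural cells in the Klf10 levels was not tested.

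Klf3, the CtBP-binding repressor, was at 30.5 and 27.1 FPKM in type I ECs, at 13.8 and 21.6 in type II ECs and at 16.3 and 14.3 in type III ECs. All 4 Selp+ libraries were below both type I libraries, and the Selp+ subsets overlapped. The log2 fold change to type III ECs was -0.87 (SE 0.29, 95% interval -1.52 to -0.22, limma adjusted p = 0.17), 1.83-fold lower. To type II ECs it was -0.70 (SE 0.29, limma adjusted p = 0.60).

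Klf13 was at 54.8 and 47.7 FPKM in type I ECs, at 40.3 and 37.0 in type II ECs and at 29.4 and 36.9 in type III ECs. The libraries of the 3 subsets did not overlap, although type II replicate 2 and type III replicate 2 nearly touched. The log2 fold change was -0.62 from type I to type III ECs (SE 0.24, 95% interval -1.17 to -0.068, limma adjusted p = 0.28), with values of -0.88 and -0.36 within replicates 1 and 2. To type II ECs it was -0.40 (SE 0.24, limma adjusted p = 0.84).

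Klf9, a relative of Klf13 that glucocorticoids induce, was at 71.0 and 48.9 FPKM in type I ECs, at 59.6 and 53.8 in type II ECs and at 57.6 and 52.7 in type III ECs. The 3 subsets overlapped, and the log2 fold change from type I to type III ECs was -0.097 (SE 0.26, 95% interval -0.68 to 0.48, limma adjusted p = 0.93).

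Between type I and type III ECs, 0 of the 8 genes were called by limma, against 4.14% of all genes tested (485 of 11717), 2.09% higher and 2.05% lower in type III ECs. At an unadjusted p under 0.05 there were 3 of 8, all lower in type III ECs, against 14.1% of all genes. Libraries did not overlap for 3 members, all lower, where 17.1% of all genes were lower and 20.7% higher without overlap, 37.9% in either direction. The median log2 fold change was -0.22 over the 8 and 0.082 over all genes. The smallest change that was called in this comparison was 0.97 on the log2 scale, and those of Klf3 and Klf13 were smaller than that.

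From type I to type II ECs 0 of 8 were called by limma, against 0.393% of all genes (0.324% higher and 0.0683% lower), and 1 of 8, Klf3, had an unadjusted p under 0.05, against 7.48%. Libraries did not overlap for 3 members that were lower and 1 that was higher, against 20.6% and 13% of all genes, or 33.6% in either direction. From type II to type III ECs 0 of 8 were called by limma, against 0.222% of all genes (0.0939% higher and 0.128% lower), and 1, Klf10, had an unadjusted p under 0.05, against 9.99%. Here 3 members, Klf7, Klf10 and Klf13, were lower without overlap, against 13.3% of all genes. A further 27.7% of all genes and 0 members were higher, so that 41% of all genes did not overlap. The median over all genes in this comparison was 0.14 and moved to 0.0095 with a median-of-ratios scaling, so differences between the Selp+ subsets are best read relative to it. The comparisons share libraries, and their values are not independent of each other.

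**Figure D2:**
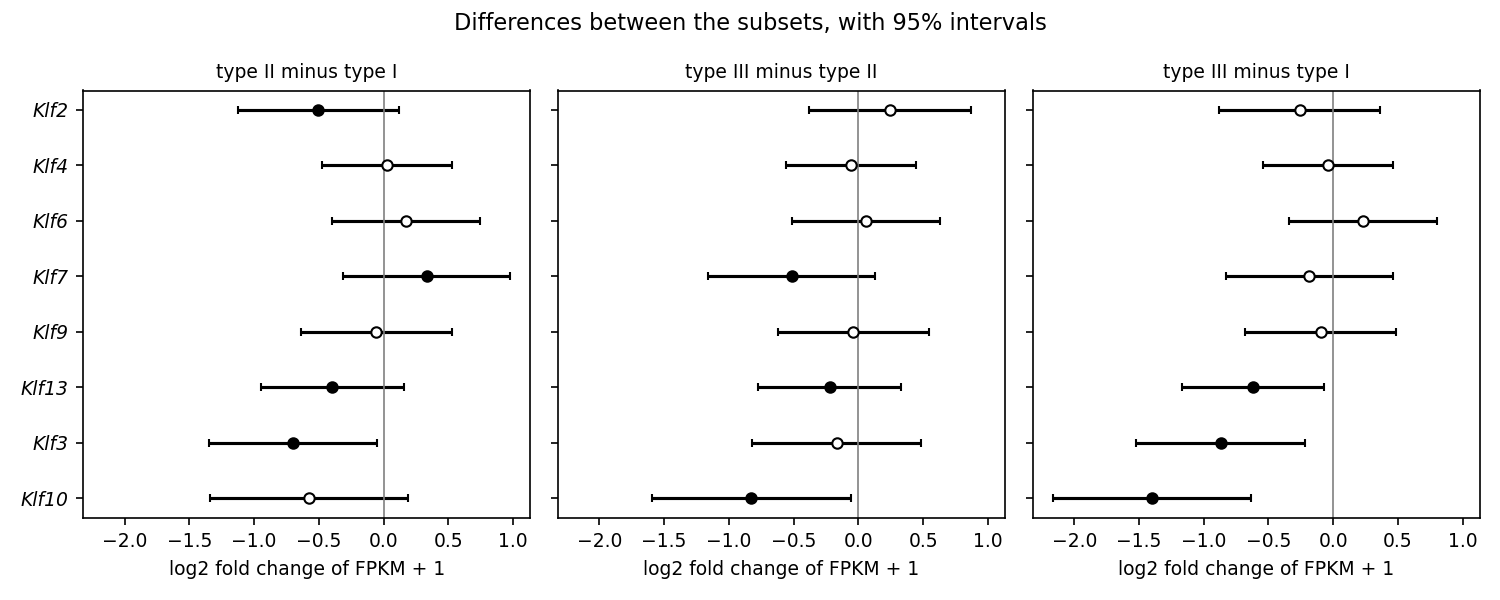
Log2 fold change of FPKM + 1 (horizontal axis) of each Klf gene (vertical axis) in the 3 comparisons, as points with 95% intervals from limma. Filled points are genes whose libraries did not overlap between the subsets. Intervals that stay below 0 are those of Klf3 from type I to type II ECs, of Klf10 from type II to type III ECs, and of Klf10, Klf3 and Klf13 from type I to type III ECs. The intervals are not adjusted for the number of genes tested, and none of these differences was called.

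Within each subset the order of the levels was partly resolved. In type I ECs it ran Klf2, Klf4, Klf6, Klf9, Klf7, Klf13, Klf10 and Klf3. Klf9, Klf7, Klf13 and Klf10 overlapped with their neighbours in that order, and the libraries of the others were separate. In type II ECs Klf4 and Klf2 overlapped at the top and Klf10 and Klf3 at the bottom, with Klf6, Klf7, Klf9 and Klf13 separate between them. In type III ECs Klf2 and Klf4 overlapped, as did Klf9 with Klf7 and Klf3 with Klf10, which was the lowest of the 8 by its mean. Among the 11717 genes tested, Klf2 ranked at 195, 278 and 250 by mean level in the 3 subsets and Klf4 at 265, 244 and 284, whereas Klf10 went from 1035 through 1488 to 3146.

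Ratios within a library do not depend on how libraries are scaled against each other. Klf10 relative to Klf4 was 0.321 and 0.235 in type I ECs, 0.237 and 0.136 in type II ECs and 0.132 and 0.0795 in type III ECs. Both type III libraries were below the other 4, the order seen on the FPKM itself. Klf13 relative to Klf4 was 0.360 and 0.344, then 0.277 and 0.247, then 0.226 and 0.240, with no overlap between subsets. That separation depended on the gene divided by, since Klf13 relative to Klf9 was 0.77 and 0.98, then 0.676 and 0.688, then 0.511 and 0.700, so that type II and type III ECs overlapped. Klf10 relative to Klf6 was 0.440 and 0.417, then 0.299 and 0.212, then 0.154 and 0.114, and here, unlike relative to Klf4, type I and type II ECs did not overlap. Klf3 relative to Klf4 was 0.201 and 0.195 in type I ECs and between 0.0932 and 0.145 in the 4 Selp+ libraries. Klf2 relative to Klf4 was 1.25 and 1.33 in type I ECs, 0.819 and 0.971 in type II ECs and 0.942 and 1.29 in type III ECs. Klf2 was thus above Klf4 in both type I libraries and below it in both type II libraries, and the type III libraries were divided.

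**Figure D3:**
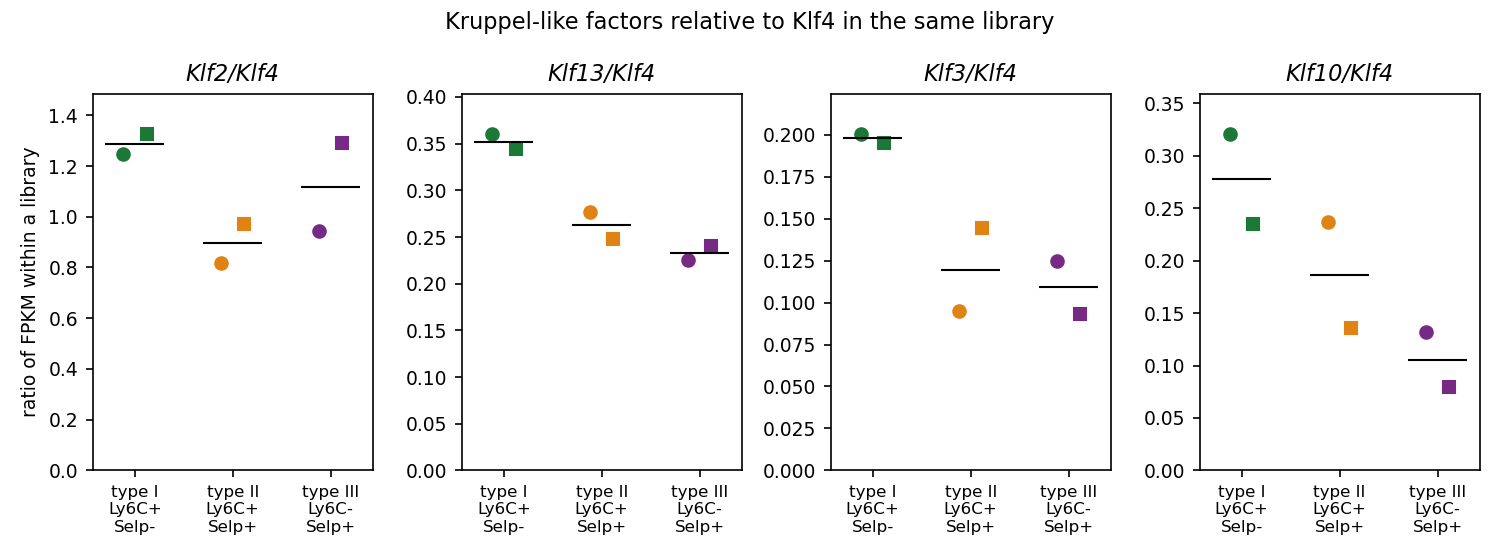
FPKM of Klf2, Klf13, Klf3 and Klf10 divided by that of Klf4 in the same library (vertical axes, from 0), by subset. Circles are replicate 1, squares are replicate 2 and lines are means of both. The Klf10 to Klf4 ratio falls from 0.321 and 0.235 to 0.132 and 0.0795, and the Klf2 to Klf4 ratio of type III ECs is split at 0.942 and 1.29.

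The 8 genes made up most of the family's transcripts. Over 17 Klf genes they held 97.0% to 98.3% of the summed FPKM in each library, and Klf2 with Klf4 held 42.9% to 54.0%. Of the 9 other Klf genes, 4 were tested and 0 were called by limma in any of the 3 comparisons, with 1 unadjusted p under 0.05, that of Klf11 from type I to type III ECs. Klf11, a Sin3a-recruiting relative of Klf10, was at 9.68 and 10.1 FPKM in type I ECs, at 6.44 and 5.90 in type II ECs and at 3.53 and 5.20 in type III ECs. The subsets did not overlap, and the log2 fold change between the first and the last was -1.04 (SE 0.30, limma adjusted p = 0.11). Klf16 was between 3.38 and 6.46 FPKM and Klf12 between 0.468 and 1.34. Klf14 and Klf17 were listed at 0 in all libraries.

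Replicates of a subset often differed by more than the deposited intervals. In 12 of the 24 pairs of libraries, 4 of 8 in each subset, the 95% intervals of a member did not overlap between replicates. This was so for Klf10 in type I and type II ECs, and not in type III ECs. These counts are on FPKM as deposited, without rescaling. The median-of-ratios size factors of replicates 1 and 2 were 1.19 and 0.85 in type I, 1.03 and 0.91 in type II and 1.17 and 0.99 in type III ECs. The part of library scale in these replicate differences was not tested. The differences between subsets were therefore judged against the spread between libraries and not against the intervals.

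Genes upstream of Klf2 and Klf4 were read from a list of 16, all of them tested, which holds flow sensors, the MEK5 and ERK5 kinases, MEF2 factors and the cerebral cavernous malformation (CCM) complex that restrains the pathway. Between type I and type III ECs 0 rose and 2 fell, where 2.09% of all genes rose and 2.05% fell. The median log2 fold change was 0.0091, against 0.082 over all genes. Kdr, which encodes VEGFR2, a part of the junctional flow sensor, was at 206 and 173 FPKM in type I ECs and at 63.4 and 70.2 in type III ECs, a log2 fold change of -1.49 (SE 0.23, limma adjusted p = 0.0079). Hdac5, a deacetylase that holds MEF2 inactive, fell by 1.16 on the log2 scale (SE 0.26, limma adjusted p = 0.040). Pecam1 and Cdh5, the other parts of that sensor and the most abundant genes of the list, had log2 fold changes of 0.54 and -0.45 that did not pass (limma adjusted p = 0.36 and 0.43). From type I to type II ECs limma called 0 of the 16, with 2 at an unadjusted p under 0.05, Kdr and Hdac5 again, and from type II to type III ECs it called 0, with 0 at that level.

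Genes known to be raised by flow, Klf2 or Klf4 were divided. Of 10, all tested, 0 rose and 4 fell from type I to type III ECs, where 2.09% of all genes rose and 2.05% fell. The median log2 fold change was -0.20, against 0.082 over all genes. At an unadjusted p under 0.05 there were 6 of 10, against 14.1% of all genes. These were the 4 that fell and 2 that were higher in type III ECs. Gja4, which encodes the arterial gap junction protein connexin 37, went from 28.1 and 27.0 FPKM through 23.3 and 14.9 to 1.51 and 3.83, a log2 fold change of -3.04 (SE 0.37, limma adjusted p = 0.0022). It was also called from type II to type III ECs, at -2.50 (SE 0.37, limma adjusted p = 0.044), and 0 others of the list were called there.

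Slc9a3r2, a scaffold protein, fell by 2.28 on the log2 scale (SE 0.23, limma adjusted p = 0.00078). Thbd, thrombomodulin, went from 153 and 125 FPKM to 55.9 and 62.9, a log2 fold change of -1.21 (SE 0.24, limma adjusted p = 0.024). Plpp3, a lipid phosphatase listed in the tables under its older symbol, fell by 1.14 on the log2 scale (SE 0.23, limma adjusted p = 0.026). The 2 most abundant genes of the list other than these, the water channel gene Aqp1 and the sphingosine-1-phosphate receptor gene S1pr1, had log2 fold changes of 0.48 and -0.34 that did not pass (limma adjusted p = 0.50 and 0.64). The 2 with higher levels, Nqo1 and Cd59a, are named here after their values were seen. Nqo1, a quinone reductase, was at 1.18 and 2.27 FPKM in type I ECs, at 6.57 and 6.98 in type II ECs and at 9.94 and 4.79 in type III ECs, a log2 fold change of 1.58 from the first to the last (SE 0.39, limma adjusted p = 0.063). Cd59a, an inhibitor of complement, was at 7.84 and 2.97 FPKM, then 14.8 and 12.9, then 13.9 and 11.9, a log2 fold change of 1.22 from type I to type III ECs (SE 0.38, limma adjusted p = 0.15). In both genes all 4 Selp+ libraries were above both type I libraries. From type I to type II ECs limma called 0 of the 10, with 5 at an unadjusted p under 0.05, against 7.48% of all genes. Of these 5, 2 were higher (Nqo1 and Cd59a) and 3 lower. Nos3, endothelial nitric oxide synthase, also named after its values were seen, was at 38.6 in both type I libraries and at 31.7 and 43.2 in type III ECs, a log2 fold change of -0.057 (SE 0.25, limma adjusted p = 0.96).

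Of 9 genes known to be lowered by Klf2 or Klf4, all tested, 4 rose and 0 fell from type I to type III ECs. Over all genes tested 2.09% rose and 2.05% fell. The median log2 fold change was 0.25, that of Icam1, against 0.082 over all genes. Ccl2 and Cxcr4, named here after their values were seen, had lower mean levels (log2 fold change -0.96 and -0.40, limma adjusted p = 0.56 and 0.76). Sele, E-selectin, rose from 12.7 and 8.85 FPKM to 269 and 283, by 4.58 on the log2 scale (SE 0.24, limma adjusted p = 3.0e-05), and it was already at 207 and 205 in type II ECs (log2 fold change 4.16, limma adjusted p = 7.2e-05). Vcam1, an adhesion molecule, rose by 2.55 (SE 0.42, limma adjusted p = 0.0094) and Edn1, endothelin, by 1.74 (SE 0.28, limma adjusted p = 0.0087). Angpt2, which antagonises the receptor Tie2, rose by 1.54 (SE 0.26, limma adjusted p = 0.012). Icam1, an adhesion molecule and the most abundant of the list after Sele, did not pass at that value (limma adjusted p = 0.72). Klf2 and Klf4 themselves were not called in any of the 3 comparisons. The lists of raised and lowered genes were chosen with earlier results of these data known. Their counts are thus no independent evidence about Klf2 or Klf4.

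A list of 11 corepressors and coactivators, which holds the partners of the repressor members, had 0 genes called by limma in each of the 3 comparisons. Its median log2 fold change from type I to type III ECs was -0.085. Sin3b alone had an unadjusted p under 0.05, lower in type II ECs than in both other subsets. Ctbp1, the partner of Klf3, was at 62.8 and 52.2 FPKM in type I ECs and at 35.8 and 47.8 in type III ECs (log2 fold change -0.46, limma adjusted p = 0.51). Sin3b was between 20.7 and 45.3 FPKM and Ncor1 between 28.4 and 34.7. Of 9 Sp genes, which bind the same GC-rich sequences, 5 were tested, and limma called 0 in the 3 comparisons, with 0 at an unadjusted p under 0.05. Sp1, Sp3 and Sp2 lay between 7.28 and 18.7 FPKM.

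**Figure D4:**
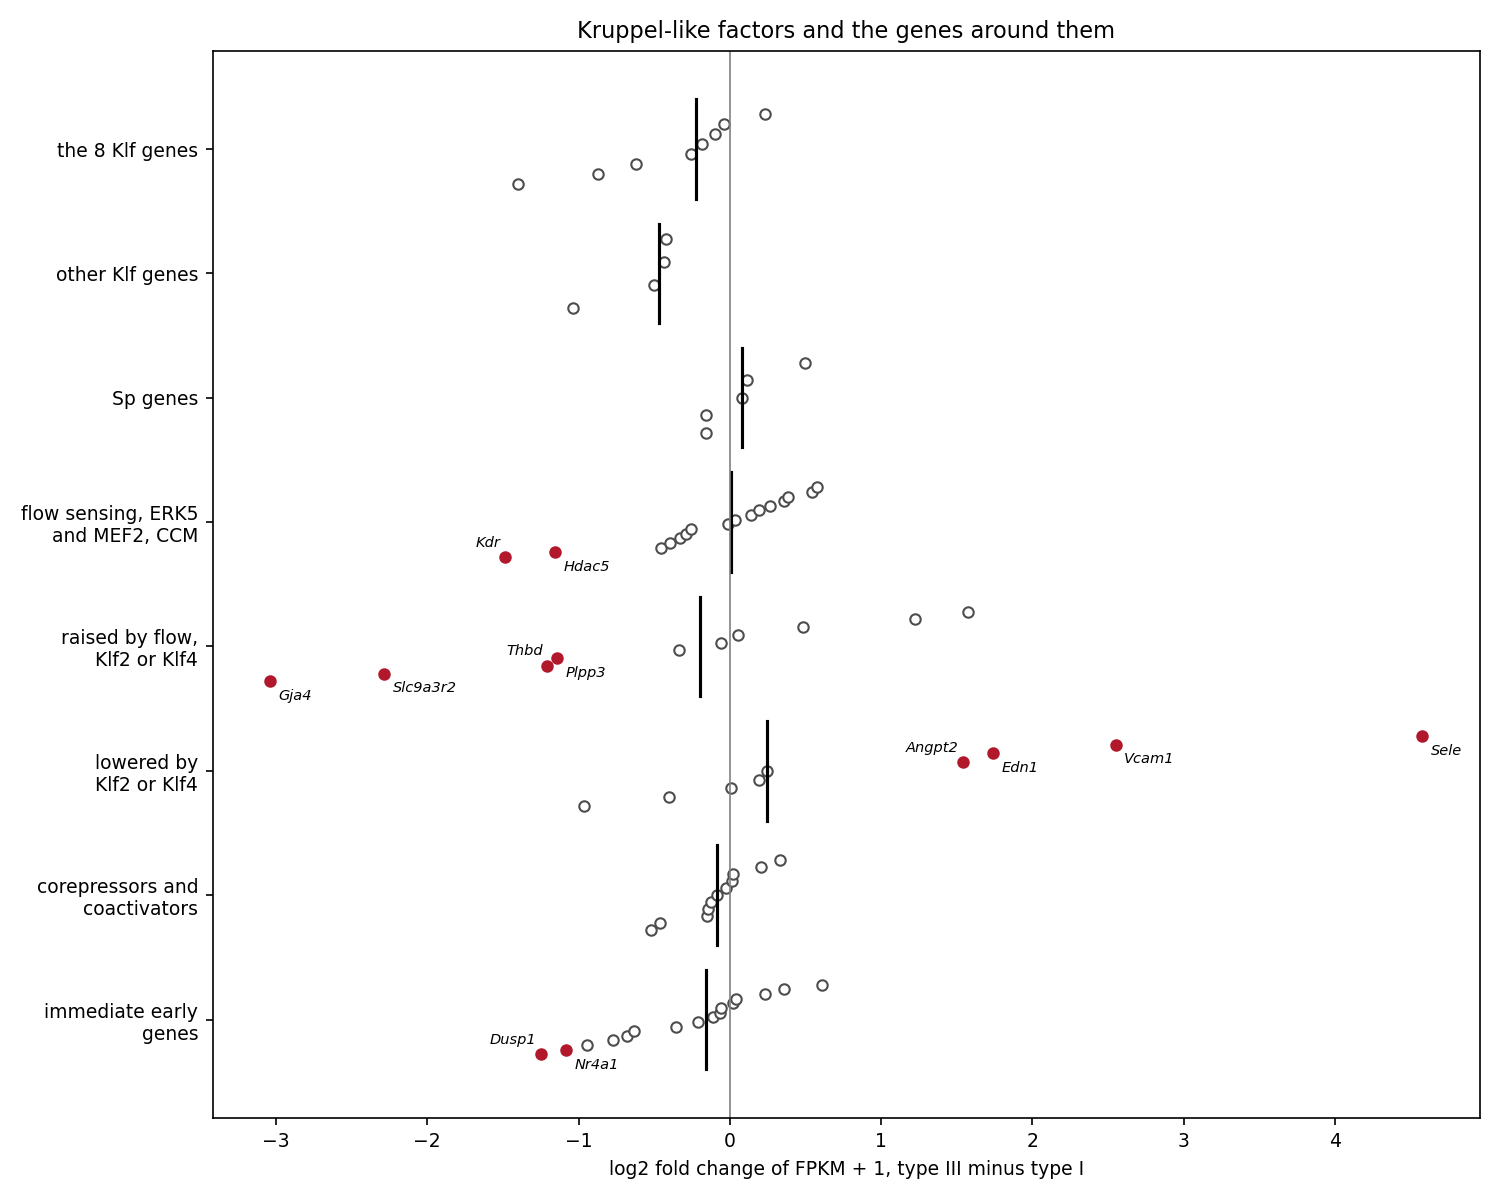
Log2 fold change of FPKM + 1 from type I to type III ECs (horizontal axis) for the tested genes of each list (vertical axis), with the vertical bar at the median of the list. Filled, named points passed an adjusted p of 0.05 in limma. None of the 8 Klf genes did. Of 10 genes known to be raised by flow, Klf2 or Klf4, 4 fell, where 2.05% of all genes tested fell. Of 9 known to be lowered by Klf2 or Klf4, 4 rose, where 2.09% of all genes rose. The lists were chosen with earlier results of these data known, so these counts are no independent test.

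Several members, Klf2, Klf4, Klf6 and Klf10 among them, are known as early response genes, and the thymi were digested with enzymes before the sort. The 16 immediate early genes examined, all tested, were abundant, with summed levels of 6182 and 4856 FPKM in type I ECs, 5177 and 4819 in type II ECs and 4228 and 4871 in type III ECs. From type I to type III ECs 0 rose and 2 fell, where 2.09% of all genes rose and 2.05% fell. The median log2 fold change was -0.16, against 0.082 over all genes. At an unadjusted p under 0.05 there were 6 of 16, 1 higher and 5 lower, against 14.1% of all genes. Dusp1, a MAP kinase phosphatase, was at 307 and 286 FPKM, then 188 and 190, then 111 and 139, a log2 fold change of -1.25 from the first subset to the last (SE 0.23, limma adjusted p = 0.015). Nr4a1, an orphan nuclear receptor, fell by 1.08 (SE 0.22, limma adjusted p = 0.029). Egr1, Zfp36 and Junb, the most abundant of them, had log2 fold changes of -0.36, -0.21 and -0.68 that did not pass (limma adjusted p = 0.62, 0.82 and 0.22). The part of this response in the levels of Klf10 was not tested.

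Across the 6 libraries, the members were compared in pairs and with 4196 tested genes of a mean FPKM of at least 10. Such correlations describe 6 points that share their subsets and library depth. Among the members, Pearson's r was highest for Klf10 with Klf13 (0.81), Klf3 with Klf13 (0.74) and Klf6 with Klf9 (0.69), and it was 0.54 for Klf2 with Klf4. The genes most like Klf2 were Ephb4, Tie1 and Zc3h18, with r of 0.99, 0.99 and 0.98. Among those most like Klf4 were Nfic and Myl9 (0.97 and 0.96). Nearest to Klf10 were Tuba1a, Tpst1 and 1810011O10Rik, each with an r of 1.00 after rounding. For Klf13 they were Sik1, Cyyr1 and Efnb1 (0.99, 0.99 and 0.98) and for Klf3 Cxx1a, Arhgef5 and Idh2 (0.98, 0.97 and 0.96). Klf6 was nearest to Atrnl1, Cyb5b and Gng12, Klf7 to Kmt2a, Dst and Igf1r, and Klf9 to Nek7, Mtdh and Higd2a, with r between 0.95 and 1.00.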

How the data were processed

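RNA of 3 sorted subsets of thymic ECs was sequenced in 2 libraries each, grouped by the sample labels. The authors deposited, per library, the FPKM of each gene and the bounds of its 95% interval, made on mm9 (submitters' notes: CASAVA 1.8, TopHat2 2.0.10, Cufflinks 2.1.1 and Cuffdiff); the gene annotation is not given in the sources used here. FPKM are not counts, and Cuffdiff, which the study used, cannot be run on them. Of 24552 rows, 95 of spike-ins and reporters were left out. Log2(FPKM + 1) of the 11717 genes that reached 1 FPKM in 2 or more libraries was fitted with limma 3.58.1 (R 4.3.3, trend, 1 mean per subset, no rescaling, all 6 samples), with Benjamini-Hochberg adjustment over these genes and a threshold of 0.05. Fold changes are on that scale and understate changes of low genes. The deposited tables give no depth. Fragments were estimated from the interval, as the square of 2 FPKM over its half-width, for counting error only. SDs and p-values of 2 libraries are imprecise. Alternatives were other pseudocounts, filters, scalings and designs, and each library left out. Promoters came from RefSeq (GRCm38.p6).

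The 8 members and the gene lists were chosen with earlier results of these data known. Named are all members and, of each list, the genes called in any comparison and the 3 with the highest mean FPKM (for cell type markers, sums and the genes a result turns on), the 3 genes nearest to each member by Pearson's r, and the sort genes. Some genes of the lists are not reported here. The fit was tested on simulated independent libraries with larger changes than those of the members, so that test does not measure its error for them.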

Additional observations from a re-analysis of the deposited data

How the results depend on the processing

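Of 408 member values under other settings, 375 kept their direction and side of the threshold, 11 passed it newly and 22 changed sign, and the cause of these changes was not tested. Members called between type I and type III ECs went from 0 to 1, Klf10, with a filter at 5 FPKM (adjusted p = 0.041 in limma), with scaling to summed FPKM (0.012), by median of ratios (0.010) or by quantiles (0.010) and with the replicate number as a block (0.0028), and ranged from 0 to 1 with a library left out, 1 without type II replicate 1 or 2 (0.046 and 0.048). The block with median of ratios, added after seeing the data, gave 3 (Klf10 -1.49, Klf3 -0.96 and Klf13 -0.71) and, from type II to type III ECs, 1 (Klf10 -0.97, adjusted p = 0.041 in limma).

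Genes called between type I and type III ECs, 485, became 102 with no filter, 971 with the block and 1183 with block and median of ratios, and 233 to 425 with a library left out. The 46 from type I to type II ECs became 10 with no filter, 75, 94 and 103 with summed FPKM, median of ratios and quantiles, 15 with no trend, 29 with only both subsets fitted, 183 with the block, 263 with block and median of ratios and 12 to 46 with a library left out. The 26 from type II to type III ECs became 2, 90, 84, 90, 10, 7, 229 and 282 in that order, and 5 to 47. Higher and lower calls were 245 and 240 in the first comparison, 273 and 399 with summed FPKM, 319 and 377 with median of ratios and 313 and 381 with quantiles, and in the last 11 and 15, 16 and 74, 23 and 61, and 22 and 68. The labels do not say what libraries of the same replicate number share. Same-numbered libraries deviated together across genes in all 3 pairs of subsets (r of 0.20, 0.31 and 0.18). The thymocyte, myeloid and epithelial marker sums were higher in replicate 1 of every subset. The size factor by median of ratios was also higher there. These r were taken without rescaling, and the part of library scale in them was not tested. With 2 numbers, the shared deviations are at most a hint of pairing from the data and not from the design. The fit without the block was kept.

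Signs that changed were all of members that were not called. With each library left out in turn, the log2 fold change from type I to type III ECs ranged from -0.60 to 0.086 for Klf2, -0.16 to 0.082 for Klf4, -0.021 to 0.48 for Klf6, -0.53 to 0.16 for Klf7 and -0.36 to 0.17 for Klf9. From type I to type II ECs it ranged from -0.043 to 0.087 for Klf4, -0.080 to 0.42 for Klf6 and -0.32 to 0.21 for Klf9, and from type II to type III ECs from -0.10 to 0.59 for Klf2, -0.48 to 0.14 for Klf3, -0.18 to 0.060 for Klf4, -0.071 to 0.19 for Klf6 and -0.11 to 0.033 for Klf9. Klf9 from type I to type II ECs became 0.016 with summed FPKM and 0.027 with quantiles. Klf6 from type II to type III ECs became -0.17 with summed FPKM, -0.088 with median of ratios (also with the block) and -0.11 with quantiles.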

Other observations

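Markers of other cell types differed between the subsets. Sums of 5 fibroblast markers were 167 and 100 FPKM in type I ECs, 305 and 167 in type II ECs and 118 and 119 in type III ECs. Sums of 3 lymphatic markers were between 1.92 and 5.17 in the type I and II libraries and 20.6 and 6.19 in type III ECs, and those of 5 epithelial markers were between 11.0 and 45.4. Hba-a1, an alpha-globin, was at 55.6 and 43.8 FPKM in type I ECs and at 0 and 2.84 in type III ECs, where 1 of 3 tested erythroid markers was called lower. Atf3, a stress-induced immediate early gene named here after its values were seen, was at 222 and 172 FPKM in type I ECs and at 299 in both type III libraries (log2 fold change 0.61, SE 0.23, limma adjusted p = 0.25), the opposite direction to Dusp1 and Nr4a1.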
